A study of Aspergillus nidulans with 38 samples.

Results

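The mycelium of *Aspergillus nidulans* taken after 40 min of micafungin was compared with the mycelium of the same shake flasks at 0 min. The comparison holds 6 of the 38 RNA-seq libraries of a time course, namely the 3 labelled 40 min and the 3 labelled 0 min, paired by flask. All libraries came from the parental strain FGSC A1405, grown in low pH YGV medium at 28 °C and 250 rpm for about 20 h. Micafungin was then added at 20 ng/ml per 1 g/kg of biomass, and each of 3 flasks (the biological replicates) was sampled in series at 13 time points. The 0 min libraries are the only ones before exposure, and no untreated culture of the same age at 40 min was analysed here, so exposure and a further 40 min in the flask cannot be told apart.

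Micafungin is an echinocandin, a lipopeptide that inhibits the synthase of β-1,3-glucan, the main structural glucan of the fungal wall. In fungi, wall damage is sensed at the plasma membrane by Wsc-type proteins and passed through the GTPase Rho1 and protein kinase C to a MAP kinase cascade, the cell wall integrity (CWI) pathway, which acts on transcription factors such as RlmA. Wall repair draws on α-1,3-glucan synthases, chitin synthases and enzymes that cut and rejoin glucan chains.

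The reads counted on genes were 5973782, 10036333 and 6696372 in flasks 1, 2 and 3 at 0 min and 8085564, 8564812 and 8165521 at 40 min. The 10 most abundant genes took 5.22 to 8.11% of the reads in these 6 libraries. Markers of vegetative mycelium were high in every library (4 genes, summed normalized count 47650 to 73030), where a normalized count is a read count divided by the library's size factor. The 8 markers of conidiophores and conidia summed to 170 to 195 at 0 min and to 206, 369 and 216 in flasks 1, 2 and 3 at 40 min, and the spore wall gene *dewA* had no reads in 2 of the 6 libraries. The 4 sexual markers summed to 2394 to 3920 at 0 min and 2872 to 3498 at 40 min, most of it from *nsdD*. Since these are bulk samples, fewer cells of a kind and less RNA per cell cannot be told apart.

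At 40 min, 4 of 9 genes tested from sulfate assimilation, the α-1,3-glucanase gene *agnE* and the conidiation regulator *brlA* were higher than at 0 min. The genes for pyruvate decarboxylase, an alcohol dehydrogenase, β-tubulin and the oxidoreductase *gmcA* were lower. None of these falls stayed called in all 3 fits that left out 1 flask in turn. Of 8360 genes tested, 151 (1.81%) were called higher and 108 (1.29%) lower at an adjusted p under 0.05 (edgeR quasi-likelihood test, flask as a block, spread estimated over 36 libraries). The called rises ranged from 0.26 to 5.64 on the log2 scale with a median of 1.00, and 76 of them exceeded 2-fold. The called falls ranged from -3.37 to -0.30 with a median of -1.13, and 61 exceeded 2-fold. All 259 called genes (3.1% of those tested) moved the same way in all 3 flasks, as did 34.7% of all genes tested. For 155 of the 259, the 3 values at 40 min did not overlap the 3 values at 0 min, against 12.9% of all genes tested. These were 85 of the 151 rises and 70 of the 108 falls, where 5.92% of all genes tested had separate groups in the higher direction and 6.96% in the lower.

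The number of calls depended on the libraries in the fit. With the 6 libraries alone and the flask as a block, edgeR called 0 genes higher and 0 lower, with 862 genes at an unadjusted p under 0.05 (1305, or 15.6%, in the fit over 36 libraries: 8.68% of all genes tested in the higher direction and 6.93% in the lower), while DESeq2 on the same 6 libraries called 119 higher and 81 lower. Leaving out flask 1 left 11 genes higher and 3 lower, leaving out flask 3 left 64 and 70, and leaving out flask 2 gave 194 and 88. In each of these fits all 259 genes kept their direction.

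**Figure D1:**
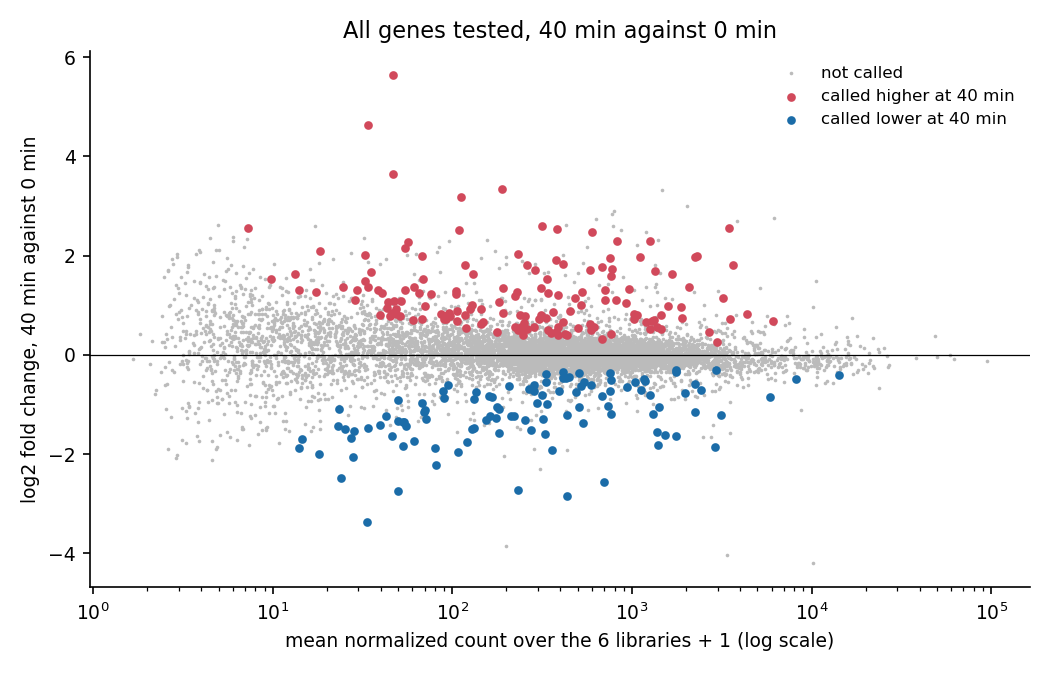
Log2 fold change at 40 min against 0 min (vertical axis) by mean normalized count over the 6 libraries plus 1 (horizontal axis, log scale), 1 point per gene tested. The 151 genes called higher are in red and the 108 called lower in blue, and the 3 largest rises lie at mean counts under 50.

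Sulfate assimilation had the most called members of any list not taken from the study. Its members, like those of the other lists, were chosen with earlier results of these data known, so its count is not independent evidence. In this pathway sulfate is activated by ATP sulfurylase, reduced by PAPS reductase and sulfite reductase, and built into cysteine and methionine. Of 9 members tested, 4 rose and 0 fell, against 1.81% of all genes called higher. The median member stood at 1.35 on the log2 scale, against 0.01 for all genes tested.

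The PAPS reductase gene *sA* (AN4770) had normalized counts of 943, 992 and 533 in flasks 1, 2 and 3 at 0 min and 7481, 2178 and 8754 at 40 min. Every 40 min value lay above every 0 min value, and flask 2 showed the smallest rise. The fitted rise was 2.55 ± 0.39 (log2 fold change ± SE, n = 3 flasks, edgeR adjusted p = 0.000369).

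Its neighbour on the chromosome in the RefSeq annotation, the ATP sulfurylase gene *sC* (AN4769), went from 2367, 950 and 1273 normalized counts to 8986, 2002 and 6437, a rise of 1.81 ± 0.38 (edgeR adjusted p = 0.00618). Its groups overlapped, because flask 2 at 40 min was below flask 1 at 0 min. AN7600, listed by the study under sulfur amino acid metabolism, had the smallest adjusted p of the list. Its normalized counts were 938, 1066 and 732 at 0 min and 3872, 2518 and 4626 at 40 min, with no overlap and a rise of 2.00 ± 0.26 (edgeR adjusted p = 8.0e-05). The cystathionine β-lyase gene *metG* (AN7051), which acts in methionine synthesis, rose by 1.60 ± 0.33 (edgeR adjusted p = 0.00575), from 382, 496 and 205 to 1322, 612 and 1568 normalized counts.

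The other 5 members did not pass the test. The homocysteine synthase gene *cysD* (AN8277) had 1775, 4948 and 1633 normalized counts at 0 min and 7094, 4800 and 10830 at 40 min, so it was high in flask 2 from the start. The adenylylsulfate kinase gene *sD* (AN1194) stood at 0.03 ± 0.15 and the cysteine synthase gene *cysB* at 0.28 ± 0.17 on the log2 scale. The serine acetyltransferase gene *cysA* stood at -0.36 ± 0.11 and *sconC*, a subunit of the ubiquitin ligase that controls sulfur genes, at 0.19 ± 0.10. Of the 4 calls, 1 was kept without flask 1 and 2 without flask 3. Without flask 2, 5 members were called higher, as were 194 of all 8360 genes tested.

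Another sulfur list was taken from the study's own choice of strongly induced genes on these libraries, so its direction is not independent evidence either. Its 9 members are relatives of enzymes and carriers that draw sulfur from other compounds: taurine and sulfonate dioxygenases, an alkanesulfonate monooxygenase, a sulfatase, a sulfonate transporter and a methionine permease. None of the 9 was called in edgeR's fit over 36 libraries, against 1.81% of all genes tested called higher. An unadjusted p under 0.05 was found for 3, all in the higher direction, against 8.68% of all genes tested. DESeq2 on those libraries called 3 and limma-voom 2, where they called 213 and 159 of all 8360 genes tested higher. Their median log2 fold change was 2.02.

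The flasks differed from each other at 0 min for these genes. AN2110, related to a *Neurospora crassa* taurine dioxygenase, had 455, 5935 and 158 normalized counts in flasks 1, 2 and 3 at 0 min and 10710, 6525 and 13370 at 40 min. AN4106, related to the yeast sulfonate transporter Soa1, had 1.35, 84.8 and 1.26 at 0 min and 85.1, 116 and 82.7 at 40 min. The sulfatase relative AN8341 had 133, 1001 and 76.7 at 0 min and 2128, 943 and 2862 at 40 min. Flask 2 was the highest of the 3 flasks at 0 min for all 9 genes, at 5.83 to 69.6 times the mean of flasks 1 and 3, whereas at 40 min this ratio was 0.378 to 8.65. Fitted without flask 2, all 9 were called higher, by 1.88 (AN9490, related to a yeast methionine permease) to 5.91 (AN4106) on the log2 scale, with edgeR adjusted p of 0.00645 or less. That fit called 194 of all 8360 genes tested higher. The genes were chosen on these libraries and flask 2 was singled out by its values, so the 9 calls are a description only. The source of flask 2's level at 0 min was not tested.

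**Figure D2:**
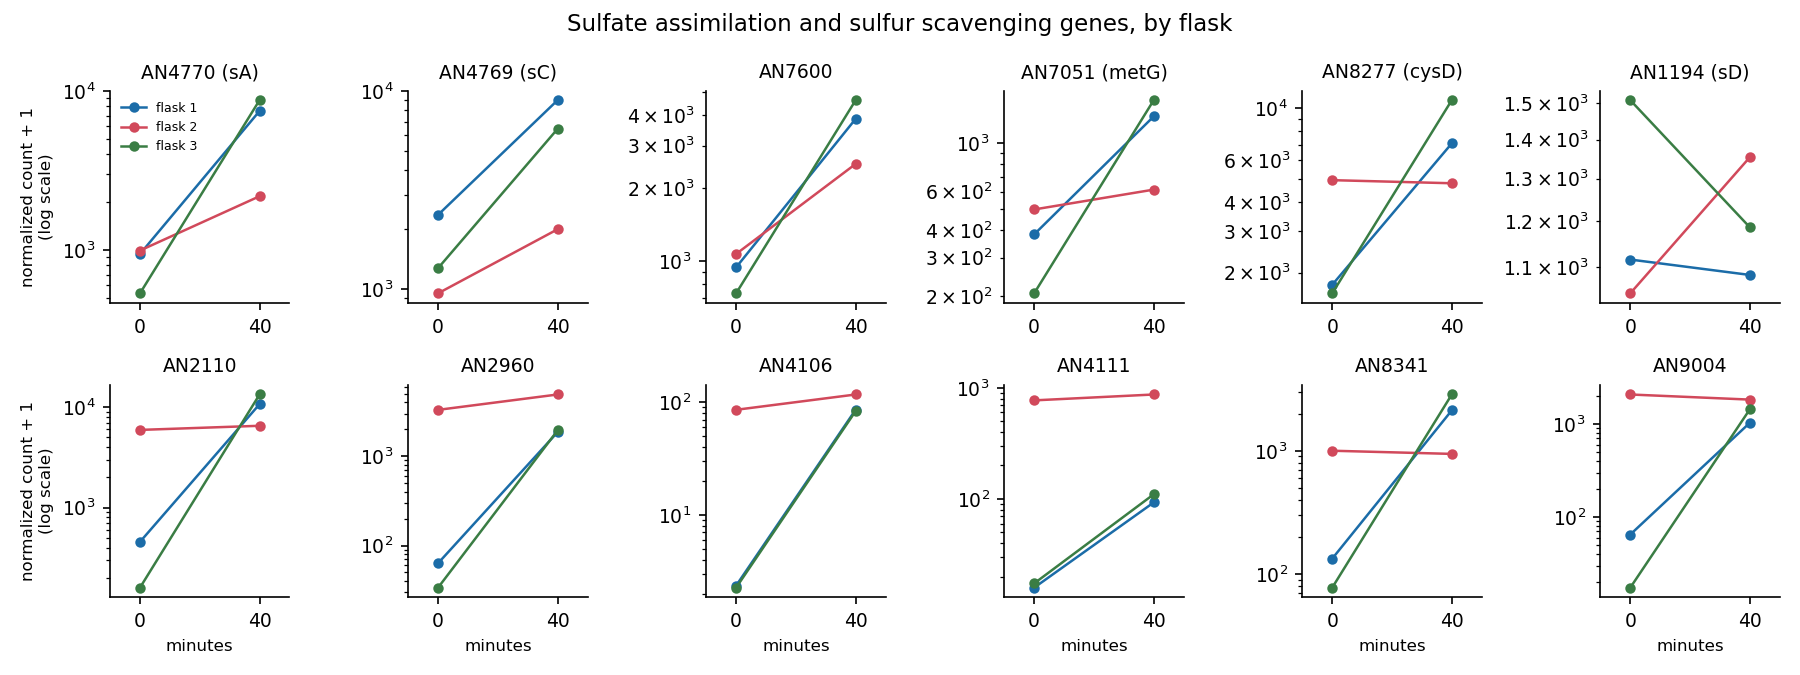
Normalized count plus 1 (log scale) at 0 and 40 min for 6 sulfate assimilation genes and 6 sulfur scavenging genes, 1 line per flask. For AN2110, AN2960, AN4106, AN4111, AN8341 and AN9004, flask 2 (red) started above the other flasks and changed little, while flasks 1 and 3 rose.

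Among the 12 largest called rises with at least 50 normalized counts at either time, 7 had separate groups. So had 85 of all 151 called rises and, in the higher direction, 5.92% of all genes tested. The 12 were picked on these same values, so the count is a description only. Flask 2 was the highest flask at 40 min for 7 of the 12 and the lowest for 4. AN5270 rose most. Its normalized counts were 1.35, 3.17 and 0 at 0 min and 21.3, 248 and 0.940 at 40 min, so most of its reads came from flask 2, and the groups overlapped. The next gene number, AN5271, went from 4.06, 3.17 and 0 to 21.3, 167 and 1.88. Their fitted rises were 5.64 ± 0.93 and 4.63 ± 0.83. Without flask 2 the rises were 3.72 and 2.41 (edgeR adjusted p of 0.202 and 0.382), and without flask 1 they were 5.95 and 5.44 (edgeR adjusted p of 0.0574 and 0.0774), so both calls were lost when flask 1 or flask 2 was left out. No source used here describes these genes.

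AN6401 (rise of 3.64 ± 0.67) and AN7954 (3.34 ± 0.54), the latter related to an *N. crassa* aldose reductase, showed the same arrangement. AN7954 had 10.8, 60.3 and 6.29 normalized counts at 0 min and 58.0, 962 and 26.3 at 40 min. Without flask 2 the rises of AN6401 and AN7954 were 1.84 and 2.29 (edgeR adjusted p of 0.494 and 0.136), and without flask 1 they were 3.70 and 3.46 (edgeR adjusted p of 0.0773 and 0.0734), so neither passed when flask 1 or flask 2 was left out. AN1941, a predicted GPI-anchored protein related to the *N. crassa* anchored cell wall protein ACW-3, rose in each flask, from 24.4, 32.5 and 16.4 to 60.0, 466 and 51.7, and its groups did not overlap (2.52 ± 0.55, edgeR adjusted p = 0.00815).

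Other large rises were spread over the flasks or were largest in flasks 1 and 3. AN5017 went from 78.5, 158 and 41.5 normalized counts to 413, 880.0 and 325, a rise of 2.59 ± 0.49 (edgeR adjusted p = 0.00316) of similar size in each flask. AN4257 went from 379, 519 and 244 to 2471, 815 and 3168 (2.30 ± 0.42) and AN8597 from 66.3, 251 and 45.3 to 660, 412 and 859 (2.53 ± 0.53). AN0993, annotated to transmembrane transport, went from 157, 496 and 170 to 1632, 703 and 1812 (2.29 ± 0.59). These last 3 genes repeated the pattern of the sulfur genes, with the smallest rise in flask 2. AN7385, annotated as a phosphatidylserine decarboxylase, went from 317, 258 and 35.2 to 1568, 785 and 626 (2.48 ± 0.58).

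**Figure D3:**
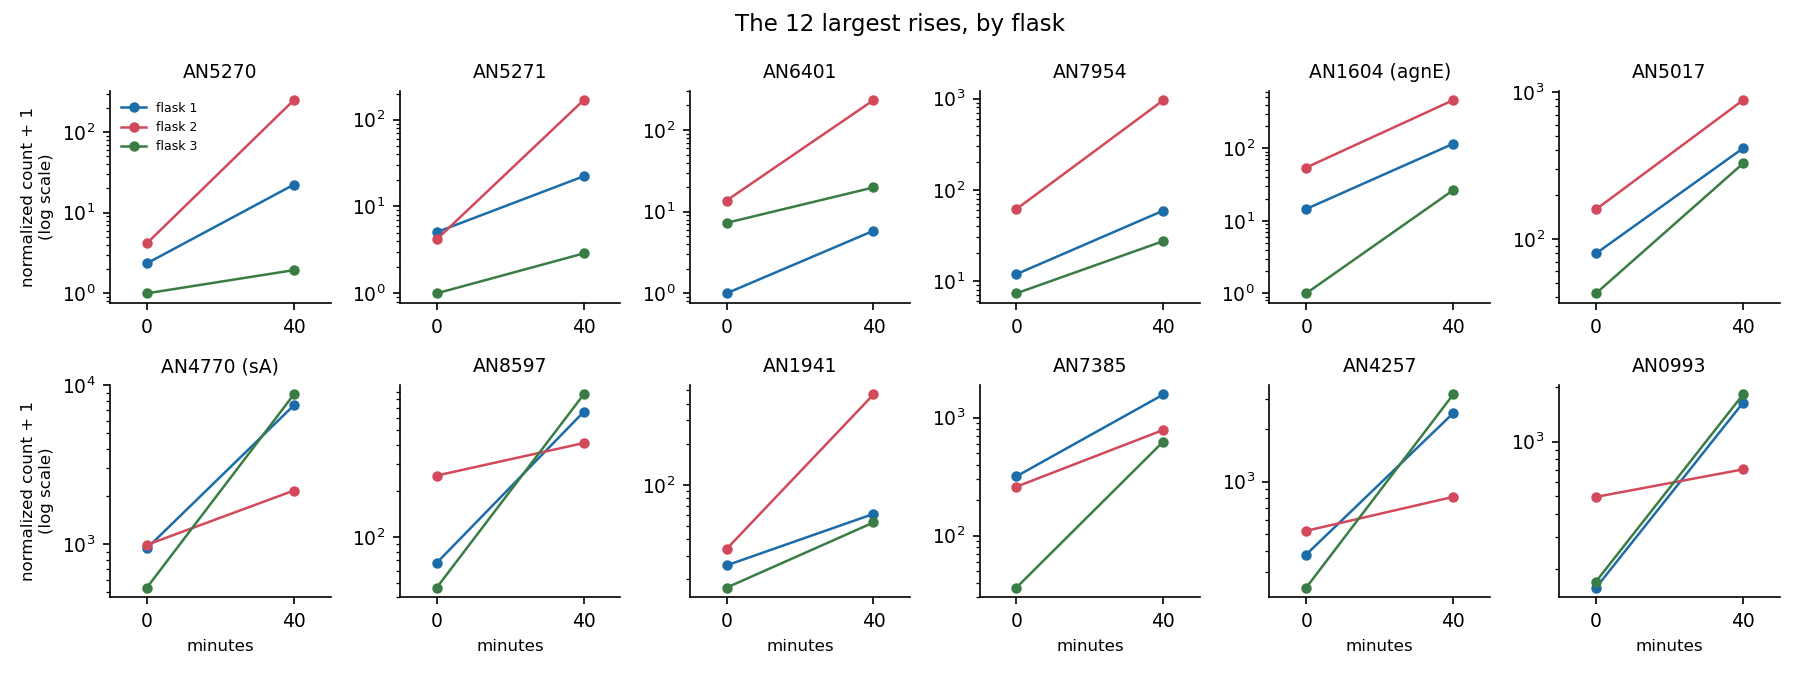
Normalized count plus 1 (log scale) at 0 and 40 min for the 12 largest called rises, 1 line per flask. Flask 2 (red) is the highest flask at 40 min in 7 panels, from AN5270 to AN5017 and in AN1941, and the lowest in 4.

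Of the 12 largest called falls, chosen in the same way, 10 had separate groups. So had 70 of all 108 called falls and, in the lower direction, 6.96% of all genes tested. The 12 were picked on these same values, so the count is a description only. AN7053, an uncharacterized gene, fell from 81.2, 46.0 and 50.3 normalized counts to 5.80, 9.31 and 1.88, a change of -3.37 ± 0.51 (edgeR adjusted p = 0.00034). The GMC oxidoreductase gene *gmcA* (AN8547), which is needed in early conidiophore development, fell from 678, 194 and 1478 to 81.3, 52.2 and 136 (-2.84 ± 0.60, edgeR adjusted p = 0.00655). AN8548, next to it in the RefSeq annotation, fell from 112, 37.3 and 235 to 33.9, 17.7 and 35.7 (-1.87 ± 0.40). In both genes flask 3 was the highest and flask 2 the lowest at 0 min, and all 3 flasks fell.

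Several falls concerned enzymes of small molecules. AN9297, annotated as an oleate hydratase, fell from 610, 363 and 225 normalized counts to 62.9, 79.2 and 39.5 (-2.72 ± 0.58). AN5611, a carbonic anhydrase, fell from 194, 182 and 138 to 41.6, 46.6 and 40.4 (-1.96 ± 0.30, edgeR adjusted p = 0.00035). AN6869, related to yeast arginase, fell from 1925, 270 and 1325 to 120.0, 151 and 392 with overlapping groups (-2.57 ± 0.72). The membrane transport genes AN4119 and AN8365 changed by -2.22 ± 0.28 and -1.82 ± 0.34. AN4119, with 154, 145 and 95.6 at 0 min and 24.2, 43.8 and 16.9 at 40 min, remained called whichever flask was left out. The remaining falls of this set were AN0553 at -2.74 ± 0.75, AN6657 at -1.91 ± 0.30 and AN8544 at -1.84 ± 0.51.

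**Figure D4:**
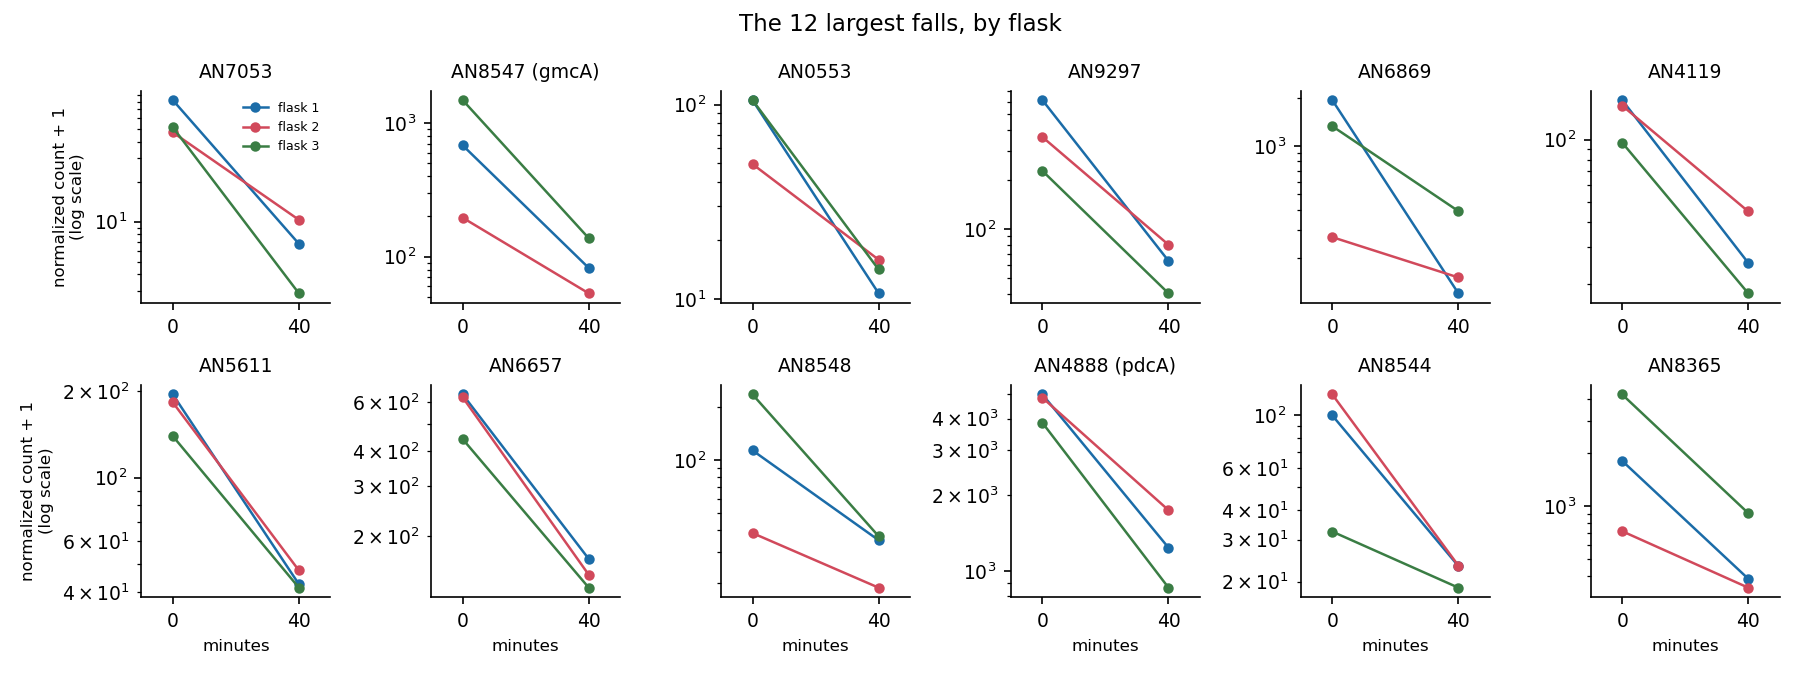
Normalized count plus 1 (log scale) at 0 and 40 min for the 12 largest called falls, 1 line per flask. All 3 flasks fell in every panel, as the choice of genes required. Of the 12 genes, 10 had no overlap between the times, against 6.96% of all genes tested in the lower direction.

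Pyruvate decarboxylase, which turns pyruvate to acetaldehyde, is encoded by AN4888 (*pdcA*). It fell from 4977, 4833 and 3847 normalized counts to 1236, 1739 and 859 (-1.86 ± 0.47, edgeR adjusted p = 0.0272). The alcohol dehydrogenase III gene *alcC* (AN2286) fell from 2838, 2870 and 2195 to 854, 1245 and 531 (-1.63 ± 0.34, edgeR adjusted p = 0.00641). Neither gene had overlapping groups. Both were lost without flask 1 (adjusted p of 0.323 and 0.285) and without flask 3 (0.0959 and 0.0641). The aldehyde dehydrogenase gene *aldA*, the other ethanol gene tested, stood at -0.22 ± 0.23 and did not pass.

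The glycolysis list, with 10 genes tested, includes *pdcA*, although its enzyme acts on pyruvate, after glycolysis. In this list *pdcA* alone was called, so no gene of glycolysis proper passed. With *pdcA* counted, 6 had an unadjusted p under 0.05 in the lower direction. Of all genes tested, 1.29% were called lower and 6.93% had such an unadjusted p. The list's median was -0.41, against 0.01 for all genes. The phosphofructokinase gene *pfkA* had 4160, 3162 and 4127 normalized counts at 0 min and 2123, 2276 and 2714 at 40 min, without overlap, at -0.65 ± 0.20 (edgeR adjusted p = 0.0771). The hexokinase gene *hxkA* stood at -0.30 ± 0.09 (edgeR adjusted p = 0.0592), also without overlap.

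Of 8 genes listed for the CWI pathway, 6 were tested, and the MAP kinase gene was not among them. None of the 6 was called, against 3.1% of all genes tested, so this short list cannot describe the pathway as a whole. The log2 fold changes of the 6 lay between -0.12 (*mkkA*, a MAP kinase kinase) and 0.22 (*wscA*, a wall stress sensor). The 3 values of *wscA* were 1841, 2022 and 2160 normalized counts at 0 min and 1883, 2872 and 2232 at 40 min. The transcription factor gene *rlmA* had 659, 710 and 657 at 0 min and 683, 617 and 651 at 40 min (-0.03 ± 0.11).

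Of 10 wall synthase genes listed, 8 were tested, and the β-glucan synthase gene was not among them. None of the 8 was called, against 3.1% of all genes tested. EdgeR's unadjusted p was under 0.05 for 1 in each direction, against 8.68% of all genes tested in the higher and 6.93% in the lower. The α-1,3-glucan synthase gene *agsA* (AN5885) had 79.9, 113 and 59.1 normalized counts at 0 min and 106, 380.0 and 127 at 40 min (1.11 ± 0.48, edgeR adjusted p = 0.237). Its groups overlapped. The major α-1,3-glucan synthase gene *agsB* had 4494, 4332 and 3711 at 0 min and 3022, 2622 and 3563 at 40 min (-0.44 ± 0.19, edgeR adjusted p = 0.24), with no overlap. The chitin synthase genes *chsB* and *chsC* stood at -0.30 ± 0.15 and -0.14 ± 0.33.

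Of the 42 wall genes that the study compiled, 1 rose and 2 fell, against 1.81% and 1.29% of all genes. This list, like those of overexpressed, underexpressed and cytoskeleton genes from the study, was drawn up with these libraries in hand, so it is not independent evidence. The α-1,3-glucanase gene *agnE* (AN1604) had the smallest adjusted p of all genes. It went from 13.5, 53.1 and 0 normalized counts to 114, 458 and 25.4, a rise of 3.17 ± 0.31 (edgeR adjusted p = 1.6e-06). Its groups overlapped because flask 2 at 0 min exceeded flask 3 at 40 min, yet it rose within each flask and stayed called whichever flask was left out. The β-glucan transglycosylase gene *btgE* (AN1551) fell by a small amount from a high level, from 14740, 14860 and 19630 to 11720, 11430 and 13030 (-0.41 ± 0.10, edgeR adjusted p = 0.0256). It was lost when any 1 flask was left out. The mannanase family gene *dfgC* (AN0393) changed by -0.74 ± 0.17, from 412, 320.3 and 336 to 254, 148 and 244.

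Of 19 conidiation genes tested, *brlA* alone was called, against 3.1% of all genes tested. This C2H2 master regulator of conidiophore development went from 12.2, 25.4 and 1.26 normalized counts to 31.0, 106 and 15.0, a rise of 2.02 ± 0.30 (edgeR adjusted p = 0.00034) that was kept without each flask in turn. It remained a low transcript, and the groups overlapped. The next regulators of the cascade, *abaA* (0.81 ± 0.56) and *wetA* (0.19 ± 0.26), did not pass, nor did the hydrophobin gene *rodA* (0.71 ± 0.52) or the spore pigment genes *wA* (-0.03 ± 0.43) and *yA* (-0.02 ± 0.18). The pigment gene *ivoB* had 4.06, 10.3 and 0 at 0 min and 2.90, 73.6 and 6.58 at 40 min (adjusted p = 0.06 with edgeR), so its reads came mainly from flask 2. The summed conidiophore markers were also highest in that library, and their part in these results was not tested. The median of the list was -0.02.

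Of 50 genes that the study named as most overexpressed, 8 were called higher and 0 lower, against 1.81% and 1.29% of all genes tested. Of its 4 most underexpressed genes, 2 were called lower. The study chose both lists on these libraries. Their median log2 fold changes were 1.85 and -2.04. Beside *agnE*, *brlA*, AN7954, AN1941 and AN8597, the called genes were AN1322, with a GTPase domain (2.15 ± 0.50), AN1600, related to an *N. crassa* NmrA family regulator (2.09 ± 0.50), and AN2118, related to an amidohydrolase (1.81 ± 0.38). AN2118 went from 65.0, 34.1 and 51.6 normalized counts to 277, 182 and 92.1 without overlap. AN3339, with a predicted oxidoreductase domain, had 2.71, 3.17 and 0 at 0 min and 18.4, 9.31 and 1.88 at 40 min and did not pass (edgeR adjusted p = 0.165), and neither did AN2116 (2.71, 19.8 and 1.26 against 40.6, 53.1 and 6.58, edgeR adjusted p = 0.107). Without flask 2, 33 of the 50 were called higher, and without flask 1 only 2. Of all 8360 genes tested, these fits called 194 and 11 higher.

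Among cytoskeleton genes the β-tubulin gene *benA* (AN1182) was the one called, in the list of 5 actin and tubulin genes as in that of 17 cytoskeleton genes from the study, against 1.29% of all genes tested called lower. It fell from 8759, 9038 and 10920 normalized counts to 7355, 7106 and 5812 without overlap (-0.49 ± 0.12, edgeR adjusted p = 0.0195) and was lost when any 1 flask was left out. The 5 septin and septation genes tested all had fitted changes below 0, from -0.41 to -0.22. None passed, against 1.29% of all genes tested called lower. Their median within-flask log2 ratio was 0.04 in flask 2, against -0.33 and -0.47 in flasks 1 and 3. The lowest fitted change was that of the septin gene *aspC*, with 3537, 3157 and 4732 at 0 min and 2826, 2534 and 3025 at 40 min (edgeR adjusted p = 0.057). In the HOG pathway and glycerol list, 1 of 10 genes rose, against 1.81% of all genes tested. AN6792, annotated as an NAD-dependent glycerol-3-phosphate dehydrogenase, went from 16.2, 26.2 and 8.81 normalized counts to 42.6, 41.0 and 36.7 (1.30 ± 0.30, edgeR adjusted p = 0.0147). This call was lost without flask 1 (edgeR adjusted p = 0.285) and without flask 3 (0.189).

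In 15 of the 25 lists no member was called, where 3.1% of all genes tested were called. Besides the CWI, wall synthase, sulfur scavenging and septin lists, these covered calcium signaling (8 tested), chaperones and the unfolded protein response (9), antioxidant enzymes (10), the glyoxylate cycle and gluconeogenesis (8), nitrogen assimilation (12) and the pheromone MAPK pathway and sexual development (10). They also covered secondary metabolite enzymes (4), autolysis (5), trehalose (4), core histones (2) and the eisosome (1 gene, *nce102*). The medians of these remaining lists lay between -0.10 and 0.19 on the log2 scale except for nitrogen assimilation at -0.55 and *nce102* at -0.50. A median near 0 can hide flasks that differ. In the antioxidant list the median within-flask log2 ratios were 0.60, -0.34 and 0.08 in flasks 1, 2 and 3. Its gene *catB* (AN9339) went from 2155, 56890 and 1393 normalized counts to 9013, 21530 and 4379, whereas *cpeA* (AN7388) rose in each flask. The source of flask 2's level of *catB* at 0 min was not tested. In nitrogen assimilation, 3 members had an unadjusted p under 0.05 in the lower direction, against 6.93% of all genes tested. The median within-flask log2 ratios of this list were -0.92, -0.74 and 0.62, so flask 3 went the other way.

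**Figure D5:**
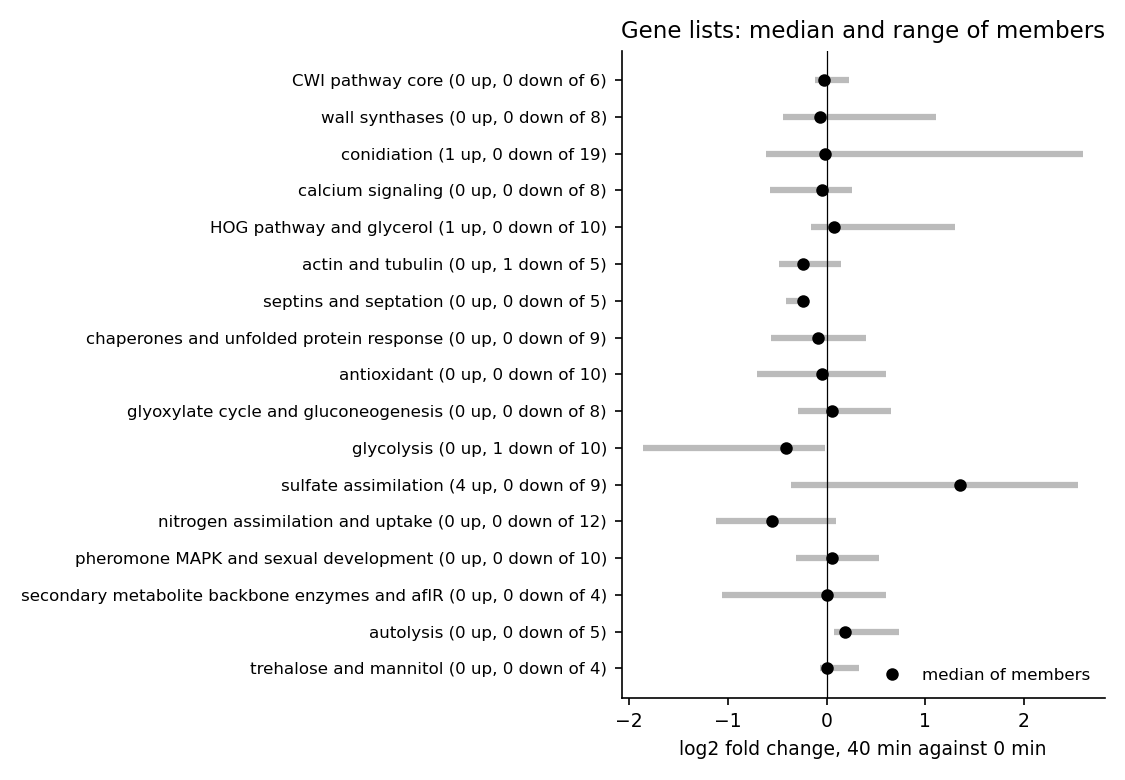
Log2 fold change at 40 min against 0 min for the gene lists with at least 4 members tested, without the sulfur scavenging list and the other lists that the study chose on these libraries. Points are medians, bars run from the lowest to the highest member, and the labels count the members called higher and lower. Sulfate assimilation, with 4 called of 9, has a median of 1.35, and the CWI pathway core, with 0 called of 6, has a median of -0.02.

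The 5 called rises with the highest counts were *sA* (2.55 ± 0.39), *sC* (1.81 ± 0.38), AN3961 (0.69 ± 0.17), AN3138 (0.83 ± 0.21) and AN7074 (0.71 ± 0.15). AN7074 went from 3085, 2744 and 2282 normalized counts to 4145, 4808 and 4142 without overlap. The 5 called falls with the highest counts were *btgE* (-0.41 ± 0.10), *benA* (-0.49 ± 0.12), AN2928 (-0.85 ± 0.15), AN4049 (-1.21 ± 0.23) and AN4927 (-0.30 ± 0.09). AN2928 went from 6140, 5920 and 10790 to 2869, 3821 and 5860.

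The 40 min libraries were last set against the neighbouring samples of the same flasks. These comparisons share the 40 min libraries with the one above. At 40 against 30 min edgeR called 0 genes in either direction, with 250 (2.99%) at an unadjusted p under 0.05, and at 50 against 40 min it called 0, with 103 (1.23%). With the 6 libraries of each step alone and the flask as a block, edgeR called 0 genes at 40 against 30 min and 42 higher and 0 lower at 50 against 40 min. DESeq2 on those 6 libraries called 5 and 0, and 55 and 2.

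The mean normalized counts of *sA* were 4717 at 30 min, 6138 at 40 min and 7884 at 50 min. Those of *agnE* were 143, 199 and 230, and those of *brlA* 31.6, 50.7 and 50.6. For *gmcA* the means were 184, 89.9 and 65.7, and for *pdcA* 1434, 1278 and 1679. None of these steps passed the test in the fit over 36 libraries.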

How the data were processed

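Single-end reads had been aligned by the authors, with HISAT2, to the FGSC A4 genome from Ensembl Fungi, counted per gene with HTSeq-count and normalized with DESeq2. Whether counting used strand is not stated in the sources read, so genes that overlap on opposite strands may share reads. The authors deposited raw counts and a normalized signal (counts over a size factor set within each table) for 9541 genes. The fits used the raw counts of 11 tables. The signal was read only to check that size factors recomputed from the counts gave it, to within a relative deviation of 6e-10. The tables also hold the authors' fold changes and p-values, which were not used. The 10 per-sample columns of the 15 min table were not used, because only 2 libraries exist at 15 min and the replicate numbers of 1 conflict.

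Genes with reads in at least 2 of 3 flasks at each of 12 time points were kept (8360). In R 4.3.3, edgeR 4.0.16 was fitted to 36 libraries with TMM, time point and flask as terms, glmQLFTest and Benjamini-Hochberg adjustment over all genes (threshold 0.05). The SE is the log2 fold change over the square root of F. Normalized counts are counts over DESeq2 size factors of the 36 libraries. Within-flask log2 ratios used a pseudocount of 1. Flask numbers pair the libraries because samples with 1 number came from 1 flask, and the deviations from the time point means at 0 and 40 min correlated across genes by 0.217, 0.375 and 0.335 in flasks 1, 2 and 3. The fit over 36 libraries was chosen knowing that fits of 6 libraries at other times had called 0 genes. It assumes that the 40 min and 0 min samples vary like the others. The variance of the 3 within-flask differences was 0.884 times the pooled one at the median gene, and 1.18 times as a ratio of means over genes. A variance from 3 values tends to lie below its true size at the median, so 0.884 does not show a smaller spread. The ratio of means lay above 1, so the SEs and p-values at 40 against 0 min may be too small. Neighbouring samples of a flask had residuals that correlated by 0.371 at the median gene, which the model does not include, so its p-values measure the spread between samples with some dependence. With such dependence, p-values tend to be too small for samples far apart, such as 40 and 0 min, and too large for neighbouring ones. The scripts were tested on simulated data.

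Alternatives were DESeq2 1.42.0, limma-voom 3.58.1, other size factors, filters and library sets, no replicate block, and each flask left out. Named genes were, among called genes with the same sign in all 3 flasks and a mean of at least 50 normalized counts at either time, the 12 largest changes and the 5 most abundant genes each way, plus called list members and a few set genes, including *agsA*, AN3339 and AN2116. The members and the 25 lists were chosen with earlier results of these data known. Names came from the study and from RefSeq (assembly ASM1142v1), which held 7833 of the genes tested. The 41 list genes that no source pairs with a name or function were left out of the counts, the β-glucan synthase and MAP kinase of the plan among them.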

Additional observations from a re-analysis of the deposited data

How the results depend on the processing

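The count at 40 against 0 min (151 higher, 108 lower) was 0 and 0 with edgeR on the 6 libraries alone, both with the replicate block and without it, and 12 and 12 over 36 libraries with no replicate block. DESeq2 over 36 libraries called 213 higher and 201 lower, of which 149 and 108 were among the genes called in edgeR. Limma-voom (159 and 110), size factors in place of TMM (140 and 119), at least 10 counts in 3 of the 6 libraries (142 and 122) and no filter (147 and 107) stayed within 1.5 times. With 1 flask left out the counts ran from 11 to 194 higher and from 3 to 88 lower, lowest without flask 1. Over all 244 list members tested, 13 were called higher and 7 lower, against 1.81% and 1.29% of all genes tested. These totals were 0 and 0 with the 6 libraries in edgeR, with or without the block, and 3 and 0 with no replicate block. They were 25 and 18 with DESeq2. With DESeq2 on the 6 libraries 25 were called higher, as were 119 of all genes tested. Leaving out 1 flask gave 3 to 41 higher and 0 to 9 lower, where all genes tested gave 11 to 194 and 3 to 88. Neither step beside 40 min had calls in the fits over 36 libraries or with a flask left out (0 to 0), while the 6 libraries alone gave 5 higher at 40 against 30 min (DESeq2), and 42 higher (edgeR with the replicate block) or 55 higher and 2 lower (DESeq2) at 50 against 40 min. No named gene changed direction in any of these fits. Of 42 called named genes, 42 stayed called with DESeq2 and 40 with limma-voom, 8 with no replicate block, and 4, 28 and 28 without flasks 1, 2 and 3; only 4 (*agnE*, *brlA*, AN7600 and AN4119) were kept in all 3 of these. With 3 flasks, changes of genes near 0 reads in 1 flask rest on few counts.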

Other observations

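Some called genes lay side by side in the RefSeq annotation (assembly ASM1142v1). Among 6550 pairs of neighbouring genes that were both tested, both members were called higher in 7 pairs, which held 13 of the 151 called rises, and both were called lower in 4 pairs, which held 8 of the 108 called falls. The rises included the run AN7266, AN7267 and AN7268 (log2 fold changes of 2.02, 1.22 and 1.99), AN1573 with AN1574 (1.00 and 1.90), AN1898 with AN1899 (1.24 and 1.72) and AN5487 with AN5488 (2.27 and 0.57). The falls included AN2648 with AN2649 (-1.05 and -1.12) and AN0402 with AN0403 (-1.20 and -1.15). These pairs were picked out after their values were seen, and since the strand setting of the counting is not given, reads of overlapping neighbours may be shared.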
